A study of Homo sapiens with 4 samples.

Results

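FLT3 and the receptors for the myeloid growth factors were read on 4 whole-transcript arrays (Affymetrix) from MOLM-14 cells, a line grown from a human acute myeloid leukaemia. The 8 members were fixed by name and comprised the receptors FLT3, KIT, CSF1R, CSF3R, IL3RA, CSF2RA and CSF2RB and the ligand FLT3LG. All 8 had a probe set among the 24241 named genes tested. In one group, cells received rapamycin, which blocks the kinase complex mTORC1, at 10 nM for 12 h, followed by GSK621, which switches on the energy-sensing kinase AMPK, at 30 µM for 6 h (rapamycin then GSK621, 2 arrays). The other group received GSK621 at the same dose and for the same time without rapamycin (GSK621, 2 arrays). All 4 samples therefore carried GSK621, and neither untreated cells nor cells given rapamycin alone were analysed here, so a change made by rapamycin itself and a change in the response to GSK621 cannot be told apart. The comparison asks which transcripts differ after AMPK activation when mTORC1 has been inhibited beforehand. MOLM-14 is 1 cell line grown in medium with serum, and no growth factor is named in its growth protocol.

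FLT3, KIT and CSF1R belong to the class III receptor tyrosine kinases, which dimerise when they bind FLT3 ligand, stem cell factor or macrophage colony-stimulating factor and then signal through PI3K, RAS and STAT proteins. CSF3R, the receptor for granulocyte colony-stimulating factor, has no kinase domain and works through bound JAK kinases. IL3RA and CSF2RA are the ligand-specific alpha chains for interleukin-3 and granulocyte-macrophage colony-stimulating factor, and both pair with the shared signalling chain CSF2RB. FLT3 is a driver of acute myeloid leukaemia, and MOLM-14 is known to carry an internal tandem duplication in it. The probe set gives 1 value for the gene, so the duplicated and the normal transcripts were not measured apart.

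Of the 8 members, CSF3R, IL3RA and FLT3 had the largest differences, being 1.35-fold, 1.29-fold and 1.27-fold higher after rapamycin then GSK621 than after GSK621 (n = 2 each). CSF1R and CSF2RA were higher by smaller amounts on both arrays, CSF2RB was higher on average with overlapping arrays, and KIT and FLT3LG were slightly lower with overlapping arrays. None of the 8 passed the test across all genes, which called 0 of 24241 genes (0.00%) at an adjusted p under 0.05 with limma and 2064 (8.51%) at an unadjusted p under 0.05, and 74 genes when limma was run with a variance trend and robust estimation, again with 0 members. In this section a level is the deposited log2 expression value of a gene, a difference is the mean of rapamycin then GSK621 minus the mean of GSK621 on that scale, and ± after a difference is its standard error (SE). Every adjusted p is limma's, with Benjamini-Hochberg adjustment over all genes.

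The RefSeq windows before the transcription start are shown for the 5 receptors whose arrays did not overlap, with higher values after rapamycin then GSK621. By that rule 20.5% of all genes did not overlap. The 95% intervals of CSF1R (−0.06 to 0.40) and CSF2RA (−0.15 to 0.31) span both signs. These windows were chosen from the same values, and a shared control of the 5 genes was not tested. CSF1R and CSF3R are textbook targets of the myeloid transcription factors read further on. Each line gives the 250 bases before a start of GRCh38.p14, 5′ to 3′ on the strand of the gene. Capitals mark matches, on either strand, to GAGGAA (the core of PU.1 sites), TGTGGT (the core of RUNX sites), TTGCNNAA (a C/EBP-type site) or TGACAG (a MEIS-type site). The windows lie at chr13:28100577-28100826 (minus strand) for FLT3, chr1:36482914-36483163 (minus) for the second listed start of CSF3R and chr1:36483315-36483564 (minus) for its first, chrX:1336535-1336784 (plus) for IL3RA, chr5:150086555-150086804 (minus) for the second listed start of CSF1R and chr5:150113366-150113615 (minus) for its first, and chrX:1268564-1268813 (plus) for CSF2RA. IL3RA and CSF2RA stand in a region shared by the X and Y chromosomes, and the X copy is printed.
FLT3: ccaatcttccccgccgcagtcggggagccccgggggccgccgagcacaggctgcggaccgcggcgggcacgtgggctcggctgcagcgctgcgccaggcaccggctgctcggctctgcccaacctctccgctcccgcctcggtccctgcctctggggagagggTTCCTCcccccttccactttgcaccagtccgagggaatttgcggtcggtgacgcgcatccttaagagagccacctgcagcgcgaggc
CSF3R, first start: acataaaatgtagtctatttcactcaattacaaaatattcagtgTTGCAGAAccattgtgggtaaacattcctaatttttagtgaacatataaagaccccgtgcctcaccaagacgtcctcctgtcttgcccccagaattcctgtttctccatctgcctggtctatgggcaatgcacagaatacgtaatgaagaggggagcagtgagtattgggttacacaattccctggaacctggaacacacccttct
CSF3R, second start: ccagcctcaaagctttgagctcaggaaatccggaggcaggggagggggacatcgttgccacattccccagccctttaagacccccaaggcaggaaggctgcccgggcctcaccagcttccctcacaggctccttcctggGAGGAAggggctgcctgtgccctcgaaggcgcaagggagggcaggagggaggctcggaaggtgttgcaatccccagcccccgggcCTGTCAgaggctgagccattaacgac
IL3RA: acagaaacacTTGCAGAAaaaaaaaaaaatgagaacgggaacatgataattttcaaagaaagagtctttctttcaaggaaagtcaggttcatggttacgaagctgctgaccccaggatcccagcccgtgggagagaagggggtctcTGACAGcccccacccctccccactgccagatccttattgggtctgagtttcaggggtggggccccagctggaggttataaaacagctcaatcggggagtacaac
CSF1R, first start: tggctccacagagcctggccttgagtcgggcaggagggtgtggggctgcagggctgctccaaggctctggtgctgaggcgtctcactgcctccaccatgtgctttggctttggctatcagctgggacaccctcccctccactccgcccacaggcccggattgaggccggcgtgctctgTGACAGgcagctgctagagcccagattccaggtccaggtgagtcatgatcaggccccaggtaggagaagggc
CSF1R, second start: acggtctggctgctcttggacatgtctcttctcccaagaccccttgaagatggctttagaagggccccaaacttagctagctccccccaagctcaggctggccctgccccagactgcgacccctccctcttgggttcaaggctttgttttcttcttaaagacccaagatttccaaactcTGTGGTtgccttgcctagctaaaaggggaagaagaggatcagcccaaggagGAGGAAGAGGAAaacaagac
CSF2RA: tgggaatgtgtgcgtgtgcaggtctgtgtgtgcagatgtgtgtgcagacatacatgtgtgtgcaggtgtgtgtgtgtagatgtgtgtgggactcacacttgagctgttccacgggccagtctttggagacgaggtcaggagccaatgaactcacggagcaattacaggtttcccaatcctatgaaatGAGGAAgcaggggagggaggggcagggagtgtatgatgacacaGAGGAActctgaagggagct

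The 7 members with an entry gave 10 such windows, and CSF2RB had none in the table. GAGGAA was read in 5 of the 10, namely those of FLT3, CSF2RA, the second starts of CSF3R, CSF1R and FLT3LG, and not in the first starts of those 3 genes, and 23.6% of all 35093 windows hold it. Before the second start of CSF1R 2 adjacent copies stood 20 to 9 bases upstream, and in CSF2RA 1 copy began 63 and another 20 bases before the start of that gene. TGTGGT was read in 1 of the 10, beginning 71 bases before the second start of CSF1R, against 11.0% of all windows. TGACAG stood in 3 of the 10 windows, those of IL3RA, the second start of CSF3R and the first start of CSF1R, against 13.0% of all windows. TTGCNNAA stood in 2, those of IL3RA and the first start of CSF3R, against 9.05%. These matches are letters in a window and do not show that a factor bound there. GC content was 72.0% for FLT3, 43.2% and 64.4% for the first and second start of CSF3R, 49.6% for IL3RA, 64.4% and 53.2% for the first and second start of CSF1R, and 52.8% for CSF2RA.

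**Figure D1:**
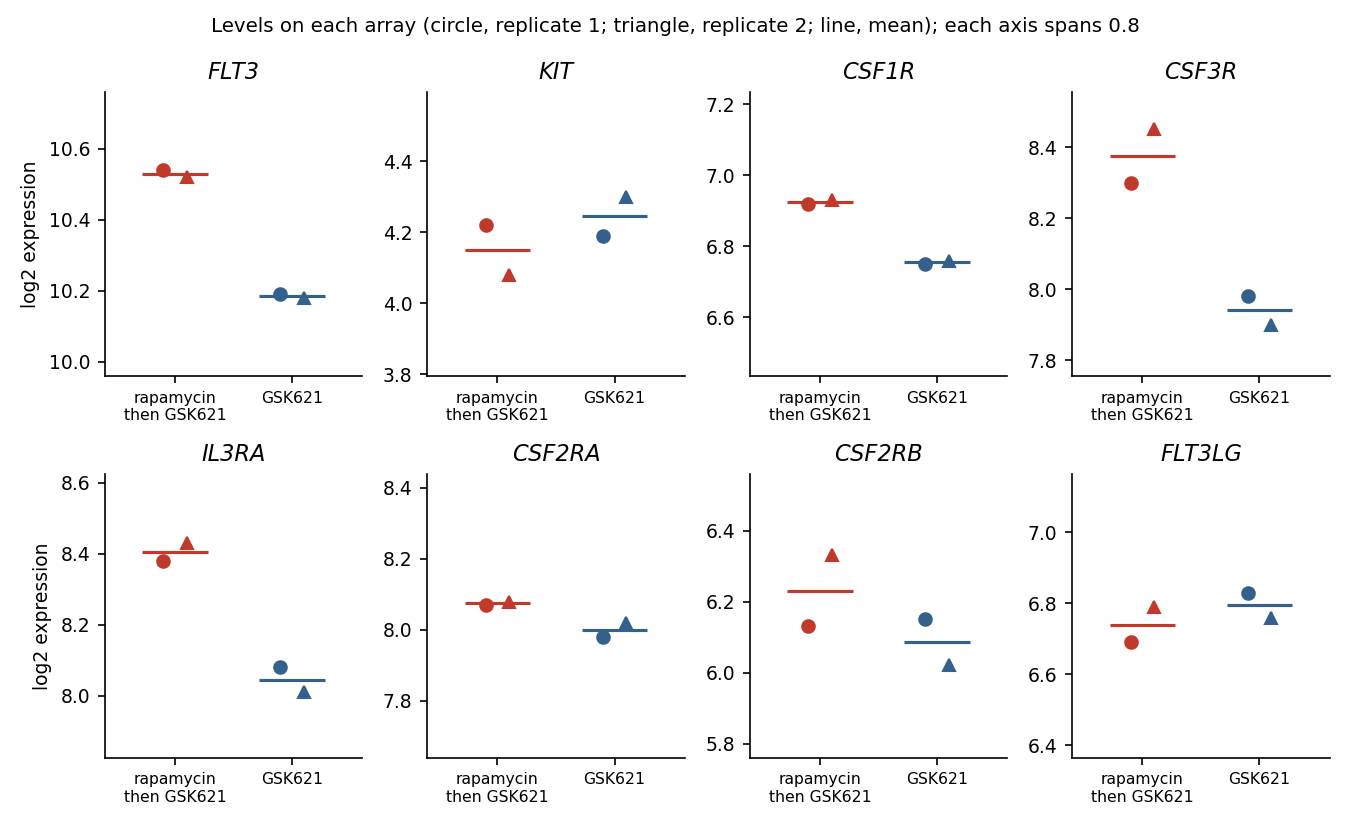
Levels of the 8 members on each array, in log2 expression units, with rapamycin then GSK621 (red) left of GSK621 (blue). Circles are replicate 1, triangles replicate 2 and lines group means, and every panel spans 0.8 log2 units. In FLT3, CSF1R, CSF3R, IL3RA and CSF2RA both red points lie above both blue points, while in KIT, CSF2RB and FLT3LG they overlap.

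Among the receptor tyrosine kinases, FLT3 had levels of 10.54 and 10.52 after rapamycin then GSK621, against 10.19 and 10.18 after GSK621. The arrays of a group lay within 0.02 of each other and the groups were apart on all 4. The difference was 0.34 ± 0.09, a 1.27-fold ratio, with a 95% interval of 0.11 to 0.57 and an adjusted p of 0.535. A higher difference than that of FLT3 was seen in 742 genes, or 3.06% of those tested. FLT3 lay at percentile 98.0 of mean signal on these arrays. Percentiles of signal depend on the probes as well as the transcript, so they place a probe set on the array and do not rank the members by abundance.

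CSF1R, the receptor of macrophages and their precursors, had 6.92 and 6.93 after rapamycin then GSK621 and 6.75 and 6.76 after GSK621. Its replicates were as close as those of FLT3, and its groups did not overlap. The difference was 0.17 ± 0.09, which is 1.12-fold, with an interval of −0.06 to 0.40 that includes 0 and an adjusted p of 0.678.

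KIT, the receptor for stem cell factor, had 4.22 and 4.08 after rapamycin then GSK621 against 4.19 and 4.30 after GSK621. The arrays overlapped, with the highest and the second lowest value both from the GSK621 samples. Its difference was −0.09 ± 0.11, with an interval of −0.36 to 0.17 and an adjusted p of 0.853. The KIT probe set lay inside the range of 354 olfactory receptor probe sets, which read genes mostly silent in blood cells and whose mean signals ran from 2.46 at percentile 5 to 5.16 at percentile 95, with a median of 3.43. The other 7 members lay at or above percentile 99.7 of the olfactory receptor probe sets. No detection calls were used here, so whether KIT was transcribed cannot be read from its value. The related receptors PDGFRA and PDGFRB were dim as well. PDGFRA had means of 4.35 ± 0.03 after rapamycin then GSK621 and 4.38 ± 0.00362 after GSK621, and PDGFRB had 4.65 ± 0.07 after rapamycin then GSK621 and 4.60 ± 0.04 after GSK621 (SD, n = 2 each).

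Among the receptors without a kinase domain, CSF3R, the main receptor of granulocyte production, had levels of 8.30 and 8.45 after rapamycin then GSK621 against 7.98 and 7.90 after GSK621. This was the largest difference among the members, 0.43 ± 0.10 or 1.35-fold, with an interval of 0.17 to 0.69 and an adjusted p of 0.489. Higher differences were seen in 334 genes, or 1.38% of those tested. The gap between the groups was wider than the spread of 0.14 between the arrays of rapamycin then GSK621 and of 0.08 between those of GSK621.

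IL3RA, also known as CD123, had 8.38 and 8.43 after rapamycin then GSK621 and 8.08 and 8.01 after GSK621. Both levels with rapamycin exceeded both without it. The difference was 0.36 ± 0.09, a 1.29-fold ratio, with an interval of 0.13 to 0.60 and an adjusted p of 0.522, and 2.54% of genes had a higher one.

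CSF2RA, the alpha chain for granulocyte-macrophage colony-stimulating factor, had 8.07 and 8.08 after rapamycin then GSK621 against 7.98 and 8.02 after GSK621. The arrays did not overlap, yet the difference of 0.08 ± 0.09 was smaller than its SE and its interval ran from −0.15 to 0.31 (adjusted p = 0.854). CSF2RB, the chain that IL3RA and CSF2RA share, had 6.13 and 6.33 after rapamycin then GSK621 and 6.15 and 6.02 after GSK621. Its arrays overlapped, the difference was 0.14 ± 0.12 with an interval of −0.15 to 0.43, and the adjusted p was 0.782. It was the member that moved most with single arrays, from 0.04 without replicate 2 of rapamycin then GSK621 to 0.24 without replicate 1 of that group.

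FLT3LG, the ligand of FLT3, had 6.69 and 6.79 after rapamycin then GSK621 against 6.83 and 6.76 after GSK621. The arrays overlapped and the difference of −0.05 ± 0.10 had an interval of −0.30 to 0.19 (adjusted p = 0.911). A p that misses the threshold does not show that these levels were equal, and the intervals of the 5 members that include 0 reach up to 0.43 in size.

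**Figure D2:**
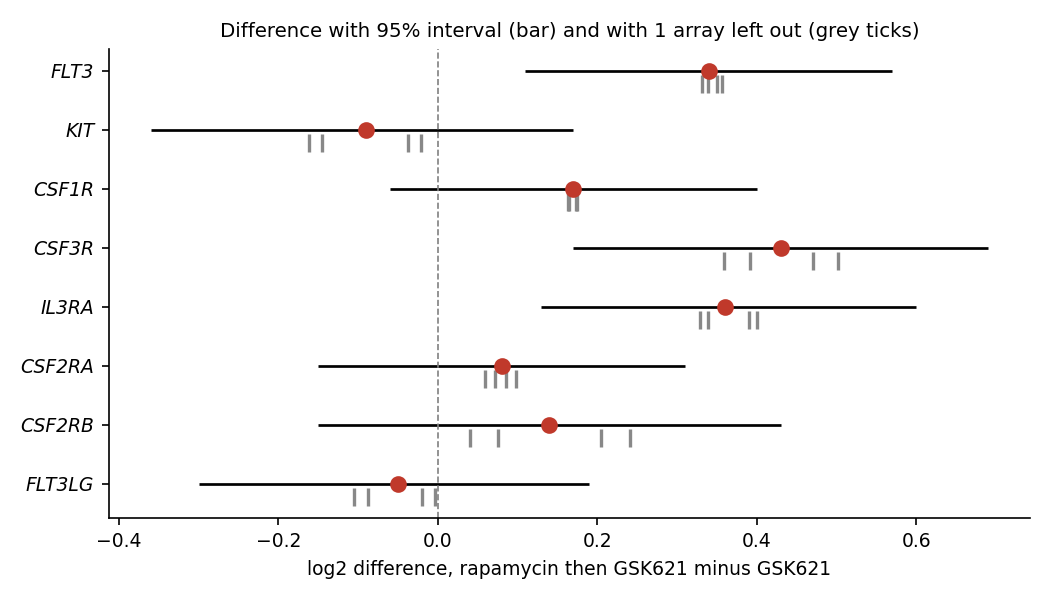
Differences of the members, rapamycin then GSK621 minus GSK621, in log2 units, with 95% intervals from limma (black bars) and the values with 1 array left out (grey ticks). The intervals of FLT3, CSF3R and IL3RA lie above 0, unadjusted for the number of genes tested, and those of the other 5 members include 0.

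Counted together, 3 of the 8 members were higher at an unadjusted p under 0.05 and 0 were lower, where 4.31% of all genes were higher and 4.20% lower by that rule. All members but KIT lay above the median level, and calls of the main fit were not counted by level. Genes above the median level, fitted alone with limma, gave 1769 with an unadjusted p under 0.05, against 2064 in the whole table. That separate fit gives each gene another p, so its calls are not a part of the 2064. The shares of all genes may therefore differ from the shares among genes of like signal. The arrays did not overlap, with higher values after rapamycin then GSK621, for 5 of the 8, against 20.5% of all genes. They did not overlap with lower values for 0 of the 8, against 18.9%. A difference above 0 was found for 6 of the 8 members and for 51.2% of all genes. The median difference was 0.15 for the members, 0.17 for the 7 receptors and 0.00 for all genes. The members were chosen by name with results of these arrays known, so these counts are a description of the list. In RNA from a whole culture, a change in the number of cells that express a gene and a change in the RNA per cell cannot be told apart.

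**Figure D3:**
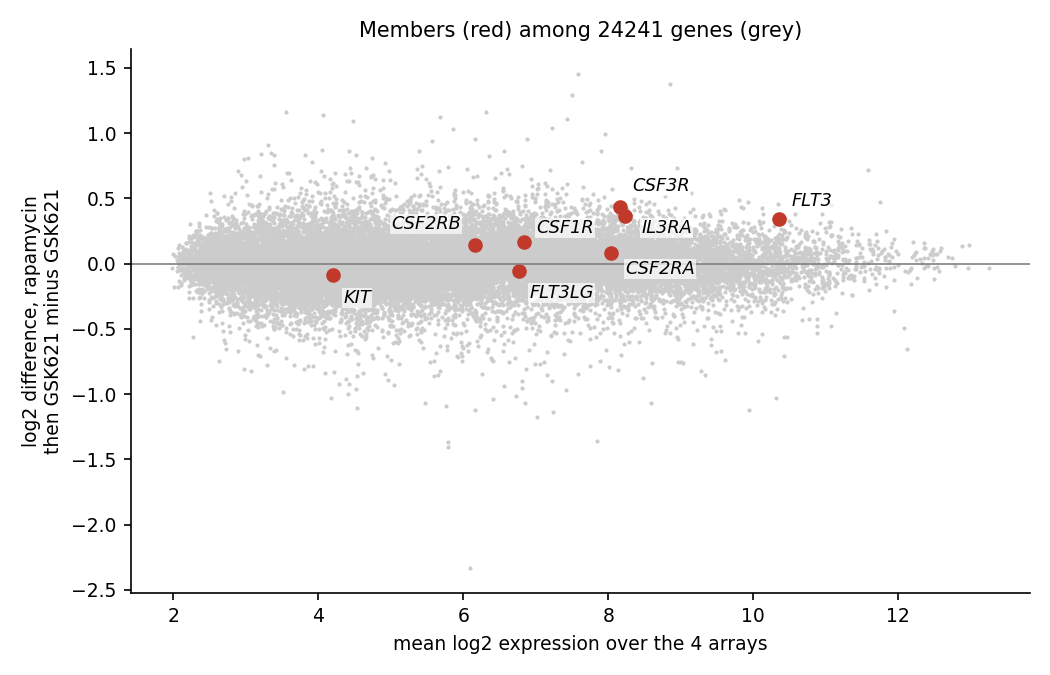
Difference, rapamycin then GSK621 minus GSK621 in log2 units, against mean log2 expression over the 4 arrays for 24241 genes (grey) and the 8 members (red). FLT3 lies at 0.34, with 3.06% of all genes above it, and CSF3R and IL3RA stand close together at 0.43 and 0.36, while KIT, FLT3LG, CSF2RA, CSF1R and CSF2RB lie within the body of the genes.

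The profiles of the members over the 4 arrays were set against those of other genes by the distance between log2 values centred on each gene, among genes above the median signal. FLT3 was closest to PRSS57 (distance 0.017), FBXO31 (0.0207) and RPL19 (0.0212). PRSS57, a serine protease of neutrophil granules, had 9.49 and 9.47 after rapamycin then GSK621 and 9.13 and 9.11 after GSK621. FBXO31 is a substrate-binding subunit of a ubiquitin ligase and RPL19 a protein of the large ribosomal subunit. CSF3R was closest to METTL9 (0.0461), a histidine methyltransferase, LRRC14 (0.0518) and the microRNA gene MIR4304 (0.0546). Between members, IL3RA lay 0.0711 from FLT3 and 0.0929 from CSF3R, and among all genes 0.334% were as close to FLT3 or closer and 0.206% as close to CSF3R or closer. With 4 arrays in 2 groups, such closeness largely means a difference of like size with small spread.

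The ligands were read beside their receptors. Of 7 ligand genes, 6 were measured, and CSF2 was not analysed here. KITLG, which encodes stem cell factor, the ligand of KIT, had 5.32 and 5.21 after rapamycin then GSK621 against 6.07 and 6.11 after GSK621. Both arrays with rapamycin were lower than both without it, and the difference of −0.82 ± 0.10, a ratio of 0.564, had an interval of −1.07 to −0.58 and an adjusted p of 0.309. It was the only ligand with an unadjusted p under 0.05, where 4.31% of all genes were higher and 4.20% lower by that rule. Its difference was larger in size than that of any of the 8 members. CSF3, the ligand of CSF3R, had a difference of −0.14 ± 0.10, CSF1 and IL34, the ligands of CSF1R, had −0.12 ± 0.13 and 0.14 ± 0.14, and IL3 had 0.02 ± 0.11. The signs of CSF1, IL34 and IL3 turned when an array was left out. IL3 and IL34 were dim, at percentiles 49.7 and 84.5 of the olfactory receptor probe sets, where KIT lay at 76.3. The 6 measured ligands had a median difference of −0.09. The arrays of 2 of them, KITLG and CSF3, did not overlap with lower values and those of 0 with higher values. The shares of all genes were 18.9% and 20.5%.

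Of 22 other haematopoietic cytokine receptor genes, 21 were measured, and 2 were higher and 4 lower at an unadjusted p under 0.05, against 4.31% and 4.20% of all genes. IL6R, the ligand-binding chain for interleukin-6, had 9.05 and 9.04 after rapamycin then GSK621 against 8.52 and 8.53 after GSK621, a difference of 0.52 ± 0.09 (adjusted p = 0.430). IL13RA1, a chain of the receptor for interleukin-4 and interleukin-13, had 0.46 ± 0.09 (adjusted p = 0.436). Both had larger differences than CSF3R, the highest of the members. In the other direction, IL21R, the receptor for interleukin-21, had 6.29 and 5.90 after rapamycin then GSK621 against 7.01 and 7.05 after GSK621, a difference of −0.94 ± 0.15 (adjusted p = 0.413). IL2RB, a signalling chain for interleukin-2 and interleukin-15, had −0.54 ± 0.15 (adjusted p = 0.543). These receptors had a median difference of 0.02 and 11 of 21 above 0, where 6 of the 7 myeloid receptors and 51.2% of all genes were above 0. The difference between the receptor lists was not tested.

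Kinases and adaptors that act directly below the receptors were measured for 27 of 31 genes, of which 0 were higher and 1 was lower at an unadjusted p under 0.05, against 4.31% and 4.20% of all genes, with a median difference of −0.02. The lower gene was FYN, a SRC family kinase, with 5.48 and 6.01 after rapamycin then GSK621 and 6.28 and 6.45 after GSK621, a difference of −0.63 ± 0.19 (adjusted p = 0.562). STAT5A is a transcription factor phosphorylated downstream of active FLT3 and by the JAK kinases bound to cytokine receptors. It had 0.27 ± 0.12, the kinase SYK 0.21 ± 0.10 and the PI3K catalytic subunit PIK3CD 0.23 ± 0.10. The closely related STAT5B had −0.018 and the kinase JAK2 −0.307. Of the 27 genes, 12 had differences above 0 and 15 below 0. In the whole list 7 of 27 genes had non-overlapping arrays with higher values and 6 of 27 with lower values, against 20.5% and 18.9% of all genes. Of 24 genes for negative regulators, 22 were measured and 1 was higher and 0 lower at an unadjusted p under 0.05, against the same shares of all genes. This was CISH, an inhibitor of cytokine receptor signalling that STAT5 induces, with 8.08 and 8.32 after rapamycin then GSK621 against 7.74 and 7.64 after GSK621, a difference of 0.51 ± 0.12 (adjusted p = 0.482). SOCS3, another cytokine-induced inhibitor, had 0.21 ± 0.10, the ERK phosphatase DUSP6 0.19 ± 0.09 and the adaptor GRB10 −0.28 ± 0.14.

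Of 20 STAT5 and cytokine-induced target genes, 19 were measured, and 4 were higher and 0 lower at an unadjusted p under 0.05, against 4.31% and 4.20% of all genes, with a median difference of 0.02. The 4 were PIM1, CISH, CCND3 and MYC. The survival kinase gene PIM1 had a difference of 1.38 ± 0.09 (adjusted p = 0.172), the cyclin gene CCND3 0.37 ± 0.10 and MYC 0.28 ± 0.09. The remaining 15 measured targets did not pass at that level, and 7 of the 19 had differences below 0.

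Transcription factors known to act on myeloid receptor genes were measured for 24 of 28 genes, of which 3 were higher and 1 lower at an unadjusted p under 0.05, against 4.31% and 4.20% of all genes, with a median difference of 0.03. RUNX1, a factor of blood stem cells and myeloid cells, had 9.62 and 9.53 after rapamycin then GSK621 against 9.21 and 9.18 after GSK621, a difference of 0.38 ± 0.10 (adjusted p = 0.496). CEBPD, a C/EBP factor of myeloid cells, had 0.34 ± 0.11, and LMO2, a bridging protein of blood cell transcription complexes, had 0.30 ± 0.09 (adjusted p = 0.562 for both). ETS1, an ETS factor prominent in lymphocytes, had 6.43 and 6.27 after rapamycin then GSK621 and 6.95 and 7.19 after GSK621, a difference of −0.72 ± 0.13 (adjusted p = 0.430). The measured genes of the factor families behind the 4 motifs had differences of both signs. SPI1, which encodes PU.1, had 0.228. Of the RUNX genes, RUNX2 had 0.024 and RUNX3 −0.347. Of the C/EBP genes, CEBPA had 0.213, CEBPB 0.016 and CEBPE −0.046, and MEIS1 had −0.126. Genes for receptor folding, maturation and shedding were measured for 8 of 9, with 0 past an unadjusted p of 0.05, and the 4 with the smallest p had differences of both signs. The chaperones HSP90B1, CANX and HSP90AB1 had −0.12 ± 0.10, −0.09 ± 0.09 and −0.07 ± 0.11, and CDC37, which loads kinases onto HSP90, had 0.12 ± 0.11.

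**Figure D4:**
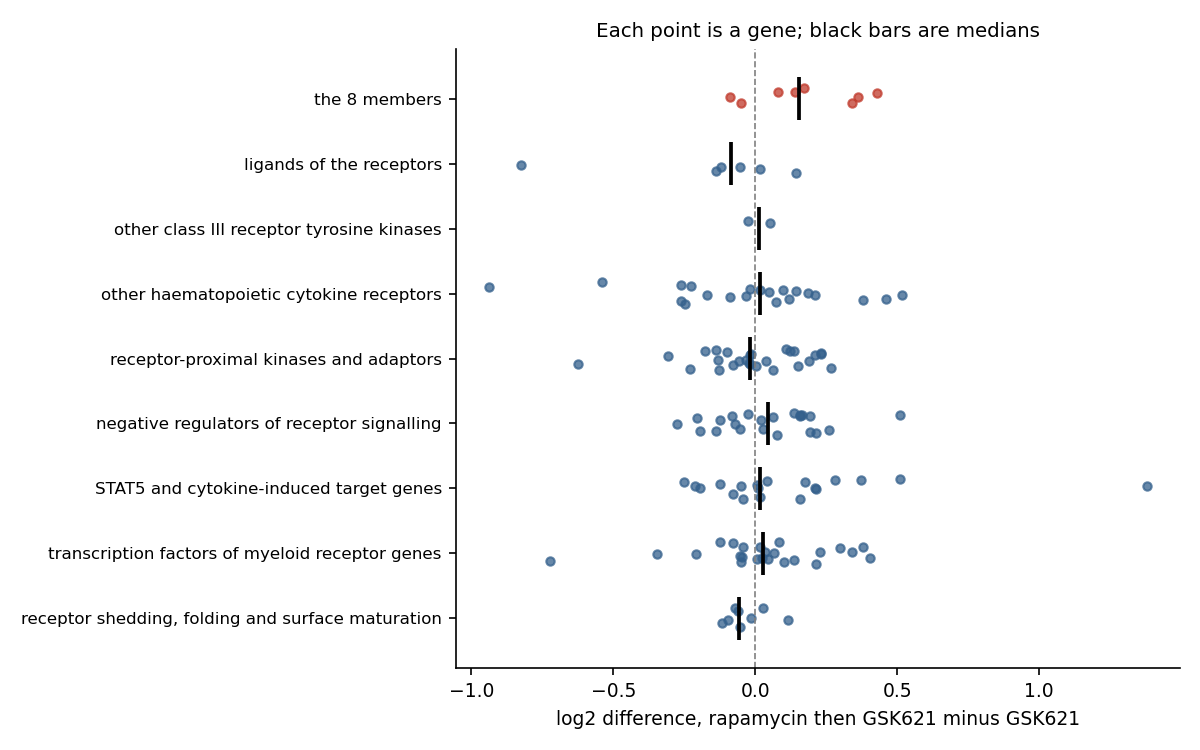
Differences, rapamycin then GSK621 minus GSK621 in log2 units, of each measured gene in the members (red) and in 8 related gene lists (blue), with list medians as black bars. The median of the members is 0.15, the medians of the other lists run from −0.09 to 0.05, and single genes such as PIM1, KITLG and IL21R stand farther from 0 than any member.

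The 4 arrays had near-equal distributions, with medians of 5.40 to 5.45 over the genes tested, and the median SE of a difference was 0.113. The number of arrays limits the precision, since an exact permutation test of 2 against 2 cannot give a two-sided p below 0.333. Of 14 myeloid markers 12 were measured, and their mean signal ran from percentile 19.6 for CD14, a marker of mature monocytes, to 99.4 for CD68 and 99.7 for LYZ, products of monocytes and macrophages, with MPO at percentile 60.9. CD33 was not analysed here. Over these 12 markers, of which CSF1R is also a member, the mean level was 8.12 and 8.08 after rapamycin then GSK621 against 8.08 and 8.00 after GSK621, with 8 of 12 differences above 0, against 51.2% of all genes. The arrays of 6 of the 12 did not overlap with higher values and those of 1 did not overlap with lower values, against 20.5% and 18.9% of all genes. Measured as well were 8 T and NK cell, 5 B cell, 5 erythroid, 5 megakaryocyte and 6 epithelial or fibroblast markers. Of these non-myeloid markers, 1 had an unadjusted p under 0.05, PF4 at −0.33 ± 0.10, against 8.51% of all genes. The mean level of each of these lists lay between 4.36 and 5.46 on all arrays. Single markers in them ran from percentile 3.04 of mean signal for HBB to 86.4 for PAX5. NKG7 at 77.0, KRT18 at 71.1, KRT8 at 67.2, HBA1 at 66.3, CD7 at 64.2, COL1A1 at 61.9 and CD8A at 61.1 also lay above MPO. Among the myeloid markers, FCER1G lay at 39.8. The part of cell state in the receptor values was not tested.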

How the data were processed

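Per the labels' protocols, total RNA was extracted on silica columns by robot and biotin-labelled sense target was hybridised to Affymetrix whole-transcript arrays. The values deposited by the authors were taken as log2 expression, with 1 value per probe set. That scale was inferred from their range of 1.84 to 13.28. R 2.15.3 and Partek stand in the submitters' processing notes without a stated role, and for the background correction, normalization and probe set summary the method is not given in the sources used here. Samples were grouped by their titles. Probe sets, 25582 in all, were named through the platform annotation (24244 with 1 symbol, 0 with several, 1338 with none). For 3 genes with several probe sets the one with the highest mean was used, which left 24241 genes.

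Values were used as deposited, unfiltered and without an added constant. The group difference came from a linear model per gene (limma 3.58.1, functions lmFit and eBayes, R 4.3.3). Its tests were two-sided and adjusted by Benjamini-Hochberg over all genes, with 2 residual and 3.39 prior degrees of freedom and 95% intervals. The samples are labelled as biological replicates with no separate cultures named, so p-values measure only the spread between these samples. The members, the lists and the rule for named genes were chosen with earlier results of these data known, and list members carry no p adjusted over their list. Named were all members, ligands and class III receptors, up to 4 genes of each other list with the smallest p, and the 3 genes closest in profile to FLT3 and to CSF3R. SPI1, RUNX2, RUNX3, CEBPA, CEBPB, CEBPE, MEIS1, STAT5B, JAK2, CRLF2, PF4 and the other cell markers were named after their values were seen. Of 138 distinct list genes, 5 stood in more than 1 list. Promoter windows and gene order came from RefSeq on GRCh38.p14. The settings tried were the replicate number as a block, leaving out each array, genes above the median level alone, quantile normalization, median centring, a robust fit with a variance trend, an unmoderated fit and the mean of probe sets. Between groups, same-numbered arrays deviated together with a correlation of 0.0923 over all genes. The method was tested on simulated data.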

Additional observations from a re-analysis of the deposited data

How the results depend on the processing

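With the replicate block, 0 genes and 0 members passed an adjusted p under 0.05. The replicate numbers are shared by both groups, and with 2 pairs, whose shifts correlated at 0.0923, they were treated as numbers only. Under the 11 other settings 0 members passed, and the number of members with a difference above 0 was 6 in each. Several settings could not move a member's difference, so equal signs there carry no information. These were the replicate block, genes above the median level, the variance trend, the unmoderated fit and the mean of probe sets. Only quantile normalization, median centring and leaving out an array could move it. The number of genes called over the whole table was 74 with a variance trend and robust estimation, 3 with genes above the median level only, 1 without variance moderation and 0 in the others. With the variance trend the adjusted p came to 0.0588 for FLT3, 0.109 for CSF3R and 0.125 for IL3RA, and PIM1 (0.00112) and IL6R (0.0331) passed, as PIM1 did among genes above the median level. Over all settings, FLT3 ran from 0.33 to 0.36 (adjusted p 0.0588 to 0.809), CSF3R from 0.36 to 0.50 (0.109 to 0.809) and IL3RA from 0.33 to 0.40 (0.125 to 0.809). With 1 array left out, KIT ran from −0.16 to −0.02 and FLT3LG from −0.105 to −0.003. Signs turned for CSF1 (0.025, range −0.262 to 0.025), IL34 (−0.014, range −0.014 to 0.298) and IL3 (−0.016) without rapamycin then GSK621 replicate 1, and for IL3 (−0.071, range −0.071 to 0.102) without GSK621 replicate 2, and the cause was not tested. KIT was not in the set above the median level and has no value there. Leaving out an array leaves 1 array in its group, which is assumed to vary like the other group. Without detection calls, the values of dim probe sets such as KIT, IL34 and IL3 have no known distance to background.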

Other observations

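Some members are neighbours in the genome, and their values can be set beside each other. In the RefSeq gene order of protein-coding genes, CRLF2, CSF2RA and IL3RA follow each other on the region shared by X and Y. IL3RA had a difference of 0.36 ± 0.09, CSF2RA next to it had 0.08 ± 0.09, and CRLF2, a receptor chain for thymic stromal lymphopoietin named after its value was seen, had 0.099. The difference between these neighbours was not tested. KIT on chromosome 4 follows PDGFRA, with differences of −0.09 ± 0.11 for KIT and −0.02 ± 0.09 for PDGFRA. CSF1R on chromosome 5 stands next to PDGFRB, and CSF1R had 0.17 ± 0.09 where PDGFRB had 0.05 ± 0.10.

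Replicates of a group can be compared for each member. Replicate 2 minus replicate 1 was 0.14 for CSF3R and 0.20 for CSF2RB after rapamycin then GSK621, against −0.08 and −0.13 after GSK621, and was −0.14 for KIT after rapamycin then GSK621 against 0.11 after GSK621. For FLT3 it was −0.02 after rapamycin then GSK621 and −0.01 after GSK621, and for CSF1R 0.01 in both groups.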
